A study of Mus musculus with 8 samples.

Results

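Ribosomal protein genes were taken by symbol from the gene table of an RNA-seq experiment on induced germinal center phenotype B cells (iGBs). Every gene whose symbol had the form Rpl or Rps with a number, with Rplp0 to Rplp2, Rpsa and the paralogs whose names end in x, l or l with a number, was kept, and names marked as pseudogenes were left out. This gave 84 of 39017 genes, 51 of the large and 33 of the small subunit. Rps12l1 and Rps12l2, annotated as processed pseudogenes, carry no such mark in their names and were kept among the latter. The cells were splenic B cells of C57BL6/J mice grown on irradiated 40LB fibroblasts, which express CD40L and BAFF, with 1 ng/mL IL-4, and they were separated from the feeder by elutriation at day 4. Prmt5-null cells came from PRMT5 FF Cgamma1-cre mice 10617, 10618, 10770 and 10771, and control cells from Prmt5-sufficient Cgamma1-cre mice CTRL-10650, CTRL-10370 and CTRL-10596 and mouse CTRL-10597, and values per library are given in these orders. Both genotypes thus carried the Cre, which is expressed from the Cγ1 locus and deletes only once B cells are activated, so cells that escaped deletion can remain. The comparison asks how the transcripts of the ribosome's own proteins differ when Prmt5, an arginine methyltransferase that makes symmetric dimethylarginine, is lost.

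Ribosomal proteins are made in near equimolar amounts and are assembled with ribosomal RNA in the nucleolus into the large subunit, which forms peptide bonds, and the small subunit, which decodes mRNA. Most of their mRNAs begin with a C followed by a run of pyrimidines, the 5′ terminal oligopyrimidine (TOP) tract, through which mTORC1 and Larp1 control their translation. Activated B cells raise ribosome production before they divide. Some ribosomal proteins also act outside the ribosome, above all Rpl5 and Rpl11, which bind Mdm2 and so stabilize p53 when assembly fails.

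The TOP-like sequence is shown first for the 6 members that passed the test described later, with Rps27 as the parent gene of Rps27l and Rpl10 as the member with the lowest fold change. Each line holds 30 bases before and 20 after the annotated start, 5′ to 3′ on the strand of the gene, from RefSeq on GRCm38.p6, and capitals mark the longest unbroken run of C and T in that window (in Rps27l the first of 2 runs of equal length).
Rps27l: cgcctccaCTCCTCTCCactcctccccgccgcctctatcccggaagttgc
Rps27: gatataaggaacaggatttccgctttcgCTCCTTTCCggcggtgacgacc
Rpl12: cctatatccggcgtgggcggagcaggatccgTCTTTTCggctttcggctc
Rpl31: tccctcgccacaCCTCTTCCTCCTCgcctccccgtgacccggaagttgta
Rpl27a: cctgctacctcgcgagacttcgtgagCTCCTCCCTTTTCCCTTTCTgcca
Rpl11: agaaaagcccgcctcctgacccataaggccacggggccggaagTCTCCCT
Rps12: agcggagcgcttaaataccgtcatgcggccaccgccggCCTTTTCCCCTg
Rpl10: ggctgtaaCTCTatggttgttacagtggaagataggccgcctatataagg

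The windows lay at chr9:66946056-66946105 for Rps27l, chr3:90213629-90213678 for Rps27, chr2:32961682-32961731 for Rpl12 and chr1:39367821-39367870 for Rpl31. Those of the other genes lay at chr7:109519165-109519214 for Rpl27a, chr4:136053374-136053423 for Rpl11, chr10:23787190-23787239 for Rps12 and chrX:74270786-74270835 for Rpl10. The run crossed the annotated start in Rps27 and Rpl27a, whereas in Rps27l and Rpl31 the marked run ended before the start. In Rpl12, Rpl11 and Rps12 it lay wholly after the start, in Rpl11 continuing past the window, and Rpl10 had no run longer than 4 bases. The annotated starts are those of RefSeq and were not measured in these cells.

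Promoters were found for 62 of the 84 members. An unbroken run of at least 8 C or T within 25 bases of the start was present in 30 of them, or 48.4%, against 19.4% of all 27025 promoters. The motif CCGGAAG, searched on both strands over the 300 bases, was in 24 members, or 38.7%, against 9.12% of all promoters. It is the core to which Ets family factors such as Gabpa bind. AAGATGGC, the core of the Yy1 motif, was in 5 members (8.06%, against 2.88% of all promoters), and TATAAA in 6 (9.68%, against 14.2%). The members with a run had a median log2 fold change of 0.23 (n = 30 tested) and those without one 0.21 (n = 30 tested).

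The targeted gene and cell type markers were checked first. Prmt5 had 1060 to 1994 normalized counts in the Prmt5-null and 11084 to 13087 in the control libraries (log2 fold change −2.98, limma adjusted p = 6.14e-06). B cell markers such as Cd79b and Ms4a1 were abundant in every library, whereas Cd3e, which defines T cells, was at 0 in all of them. Of the other T cell markers listed, Cd3d, Cd3g, Cd4 and Cd8a had at most 11.1 normalized counts. Cd28 had 67.1 to 168 in the Prmt5-null and 123 to 252 in the control libraries (log2 fold change −0.78, limma adjusted p = 0.101). The 9 B cell markers summed to 337867 to 391826 normalized counts in the Prmt5-null and 372555 to 415503 in the control libraries, with Cd79a lower (−0.74) and Fas higher (0.47) at the limma adjusted p. Fibroblast markers, which the feeder expresses, summed to 7247 to 12186 normalized counts in the Prmt5-null and 4735 to 8225 in the control libraries; all 10 tested were higher, 3 past the adjusted p, and Postn was at or near 0. The part of these differences in the results on ribosomal protein genes was not tested. Of 4 plasma cell markers, Prdm1 (−0.48) and Xbp1 (−0.45) were lower at the limma adjusted p, whereas Irf4 (0.19) and Sdc1 (0.16) had values above 0 that did not pass it. Libraries held 36731721 to 50366174 reads on genes.

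2 libraries stood apart for the ribosomal protein genes. Prmt5-null 10770 was the highest of all 8 libraries for 75 of the 82 members tested, against 21.9% of all genes tested. Control CTRL-10597 was the lowest of the 8 for 62 of 82, against 13.9% of all genes. Relative to the control mean, the median member lay at log2 0.14, 0.06, 0.54 and 0.15 in Prmt5-null 10617, 10618, 10770 and 10771. It lay at 0.02, 0.11, −0.01 and −0.14 in the control libraries. Without 10770 the Prmt5-null medians thus stayed close to the upper control values, and control CTRL-10370 was above Prmt5-null 10618. Prmt5-null 10770 also had the lowest share of reads on genes of the mitochondrial genome, 0.368% against 0.587 to 0.943% in the other libraries, and its part in these results was not tested.

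**Figure D1:**
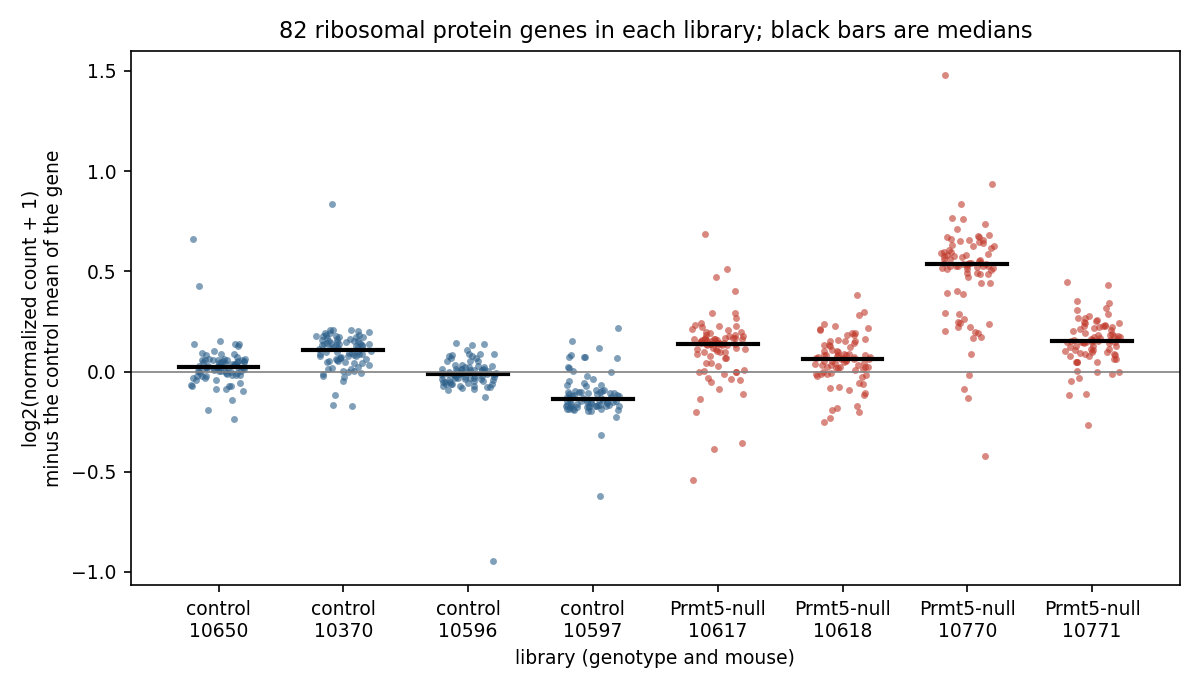
Each point is one of 82 ribosomal protein genes in one library, plotted as its log2(normalized count + 1) minus the mean of the 4 control libraries for that gene, and black bars are medians. The points of Prmt5-null 10770 lie around 0.54, whereas the other 7 libraries have medians between −0.14 and 0.15.

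Most ribosomal protein transcripts had slightly higher values in Prmt5-null iGBs, without a single member reaching both thresholds. Of the 82 members tested with limma, 76 had a log2 fold change above 0, against 50.4% of all genes tested. Their median was 0.22 (1.17-fold), with quartiles of 0.15 and 0.27, whereas the median of all 16250 genes tested was 0.00. After quantile normalization 76 members were again above 0, with a median of 0.21, whereas scaling to the median member removes such a shift by construction. Both thresholds together, an adjusted p under 0.05 and a change of 1.5-fold or more, were met by 0 members and by 6.48% of all genes. At the adjusted p alone 6 members were higher, against 6.51% of all genes, and 0 were lower, against 7.33%; the count of lower members was 0 with edgeR and DESeq2 as well. The count of 6 of 82 is therefore close to the background with the deposited size factors. It depended on the normalization, since 14 members were higher after quantile normalization, against 6.6% of all genes. With the experiment as a block it was 3 to 14 over the 18 placements, and in the placement that gave 14 it stood against 9% of all genes. At an unadjusted p below 0.05, 30 members were higher, against 14.6% of all genes, and 1 was lower, against 14.7%. Without Prmt5-null 10770 the former count was 14, against 14.5%.

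Taken one at a time, most fold changes could not be told from 0. The median SE was 0.11 on the log2 scale, the 95% interval of 51 of the 82 members included 0, and that of 74 stayed inside 1.5-fold in both directions. In 18 members the lowest Prmt5-null value exceeded the highest control value, against 9.67% of all genes, and in 0 members the reverse held, against 10.2%. Without 10770 the former count was again 18, against 13.1% of all genes. Without Prmt5-null 10770, 71 of 82 members stayed above 0 and the median was 0.12. Without both libraries that stood apart, the median was 0.07 and 67 members were above 0. In bulk RNA a difference in the share of cells of one type and a difference in RNA per cell cannot be told apart.

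The count tests on the recovered reads gave similar numbers. With edgeR 1 member, Rps27l, was called, against 6.71% of all genes, and 7 were higher at the adjusted p, against 6.77%. With DESeq2 1 member was called, again Rps27l, against 7.86% of all genes, and 9 were higher at the adjusted p, against 9.38%. The genes added to those of limma were Rpl17 in both, with Rpl26 and Rps14 in DESeq2. The count with limma fell to 5 without Prmt5-null 10770, against 7.04% of all genes, to 3 without control CTRL-10597, against 4.72%, and to 3 without both, against 6.14%. Rps27l, Rpl12 and Rpl31 passed in each of these 3 fits. Leaving out other libraries also moved the count, to 5 without Prmt5-null 10617 (4.74% of all genes), 8 without 10618 (6.31%) and 1 without 10771 (3.93%). It was 3 without CTRL-10370 (4.73%), 2 without CTRL-10596 (4.7%) and 2 without CTRL-10650 (5.08%). Over the 8 fits that left out 1 library, Rps27l passed in 8, Rpl12 in 7, not without 10771, and Rpl31 in 5, not without 10771, CTRL-10596 or CTRL-10650. Rpl11, Rpl27a and Rps12 passed in 2 each.

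Large and small subunit genes differed little as groups. The median log2 fold change was 0.22 in both the 49 large and the 33 small subunit genes tested, and their difference was −0.01. Of the large subunit genes 44 were above 0 and 4 were higher at the adjusted p. Of the small subunit genes 32 were above 0 and 2 were higher at the adjusted p. Of all genes tested, 50.4% were above 0 and 6.51% were higher at the adjusted p, so the counts of 4 and 2 are near that share. Summed over members, the share of all reads on genes was 4.32, 4.08, 5.29 and 4.31% in Prmt5-null 10617, 10618, 10770 and 10771. It was 3.92, 4.21, 3.90 and 3.57% in the control libraries. Prmt5-null 10618 lay below control CTRL-10370, so the genotypes overlapped.

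The ratio of large to small subunit reads did separate the genotypes. It was 1.26, 1.26, 1.21 and 1.252 in the Prmt5-null and 1.31, 1.28, 1.29 and 1.32 in the control libraries. This separation was lost when Rplp0 was left out. Without Rplp0 the ratio was 1.12, 1.12, 1.08 and 1.12 in the Prmt5-null and 1.14, 1.12, 1.13 and 1.15 in the control libraries. The highest Prmt5-null library, 10618 at 1.1192, then lay above the lowest control library, CTRL-10370 at 1.1176, so the genotypes overlapped.

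**Figure D2:**
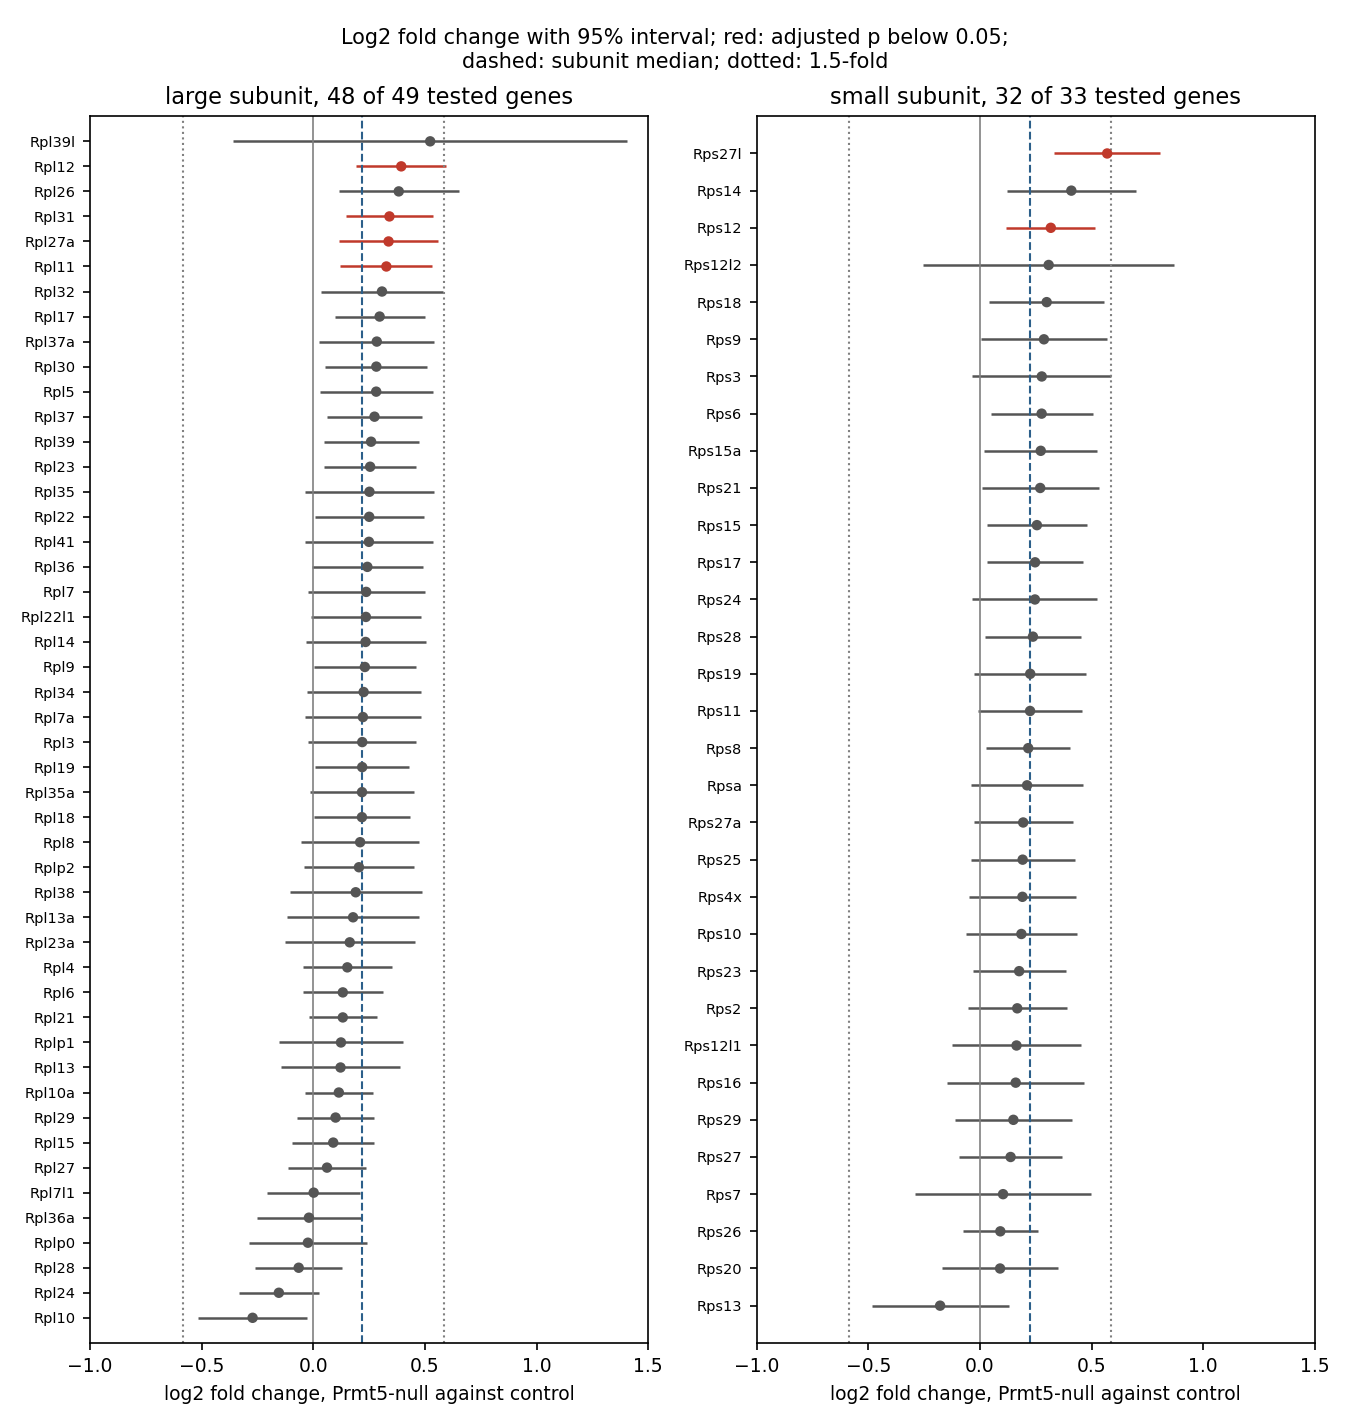
Log2 fold change of the tested ribosomal protein genes, all but 1 of each subunit, Prmt5-null against control, with its 95% interval from limma, for the large subunit (left, of 49 genes) and the small subunit (right, of 33 genes). Red marks an adjusted p below 0.05, the dashed line the median of the subunit at 0.22 and the dotted lines 1.5-fold; the 6 red genes are Rps27l, Rpl12, Rpl31, Rpl27a, Rpl11 and Rps12.

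Rps27l, a small subunit paralog of Rps27 that is known as a p53 target gene, rose most among the members that passed the test. It had 8256, 7551, 11068 and 7898 normalized counts in Prmt5-null 10617, 10618, 10770 and 10771. It had 5853, 6043, 5834 and 5438 in the control libraries. All 4 Prmt5-null libraries lay above all 4 control libraries, also with 10770 left aside. The means were 8693 ± 1609 and 5792 ± 254 (SD, n = 4 mice each), a log2 fold change of 0.57 (SE 0.11, limma adjusted p = 0.00543), just under the 1.5-fold threshold, which its 95% interval of 0.33 to 0.81 includes. Without both libraries that stood apart it was 0.42 with a limma adjusted p of 0.0044.

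Rps27, the parent gene, encodes the zinc-finger protein eS27. It had 791, 820, 1060 and 925 normalized counts in the Prmt5-null and 840, 814, 849 and 748 in the control libraries. These overlapped, and the log2 fold change was 0.14 (SE 0.11, limma adjusted p = 0.425). Per exonic length, Rps27l was 10.9 to 13.3 times as high as Rps27 in the Prmt5-null and 8.78 to 9.49 times as high in the control libraries. By the measure of unique sequence described below, 53.8% of Rps27 and 87.8% of Rps27l was found in no other gene. The part of shared sequence in the size of the ratio was not tested. The ratio is therefore not read as how abundant the paralog is relative to its parent. This ratio did not overlap between the genotypes (1.35-fold, exact permutation p = 0.0286, 0.0857 after adjustment over 6 pairs of paralog and parent). An exact p of 0.0286 is the smallest that 4 against 4 libraries can give.

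Of the large subunit genes that rose, Rpl12 encodes uL11 at the base of the stalk where elongation factors bind. It had 2786, 2440, 3032 and 2842 normalized counts in the Prmt5-null and 1845, 2093, 2229 and 2282 in the control libraries. No Prmt5-null library fell within the control range (log2 fold change 0.39, SE 0.09, limma adjusted p = 0.0155). Rpl31, which encodes eL31 near the exit of the peptide tunnel, had 1755, 1763, 2175 and 1909 normalized counts against 1396, 1545, 1462 and 1581. Here too the genotypes did not overlap (log2 fold change 0.34, SE 0.09, limma adjusted p = 0.0255).

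Rpl11, a partner of Rpl5 and 5S ribosomal RNA in the particle that binds Mdm2, had 2574, 2404, 3198 and 2449 normalized counts in the Prmt5-null libraries. In the control libraries it had 2076, 2182, 2149 and 2010. The genotypes did not overlap, with Prmt5-null 10770 clearly above the other 3 (log2 fold change 0.33, SE 0.09, limma adjusted p = 0.0402). Rpl5, the other protein of the particle, had 10957, 11212, 16047 and 12079 normalized counts against 10247, 11324, 10066 and 9334. Its libraries overlapped, and its log2 fold change of 0.28 did not pass (limma adjusted p = 0.132).

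Rpl27a, which encodes uL15, and Rps12, which encodes eS12, completed the 6. Rpl27a had 7480, 7047, 9792 and 7372 normalized counts in the Prmt5-null and 6403, 6586, 6193 and 5721 in the control libraries (log2 fold change 0.34, limma adjusted p = 0.0479). Rps12 had 2005, 1984, 2548 and 2168 against 1650, 1775, 1700.5 and 1830 (log2 fold change 0.32, limma adjusted p = 0.0391). In both genes the genotypes did not overlap, and in both the limma adjusted p rose above 0.05 once 10770 and CTRL-10597 were left out, at 0.101 for Rpl27a and 0.0613 for Rps12. The same held for Rpl11, at 0.0984. By the measure of unique sequence described below, 47.5% of Rps12 was found in no other gene. Its processed copy Rps12l1 had 16632 to 24929 normalized counts in the Prmt5-null libraries. Relative to the control mean, Rps12l1 lay at log2 0.03, −0.001, 0.58 and 0.05 in the Prmt5-null libraries. It lay at 0.03, 0.21, −0.01 and −0.23 in the control libraries, so its genotypes overlapped. The part of shared reads in the rise of Rps12 was not tested.

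Rpl10, which encodes uL16, a protein that joins the large subunit late and contacts the peptidyl transferase center, was the only member lower at an unadjusted p below 0.05. It had 2620, 3383, 2554 and 2849 normalized counts in the Prmt5-null and 3099, 3051, 3642 and 3984 in the control libraries. Prmt5-null 10618 lay inside the control range, and the log2 fold change of −0.27 did not pass after adjustment (SE 0.11, limma adjusted p = 0.13). The other members below 0 were Rps13 at −0.18, Rpl24 at −0.15, Rpl28 at −0.07, Rplp0 at −0.02 and Rpl36a at −0.02, none with an adjusted p below 0.05. Without 10618 Rpl10 was the 1 member lower at the limma adjusted p. In Rpl10, unlike most members, 10770 was the lowest of the 8 libraries.

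**Figure D3:**
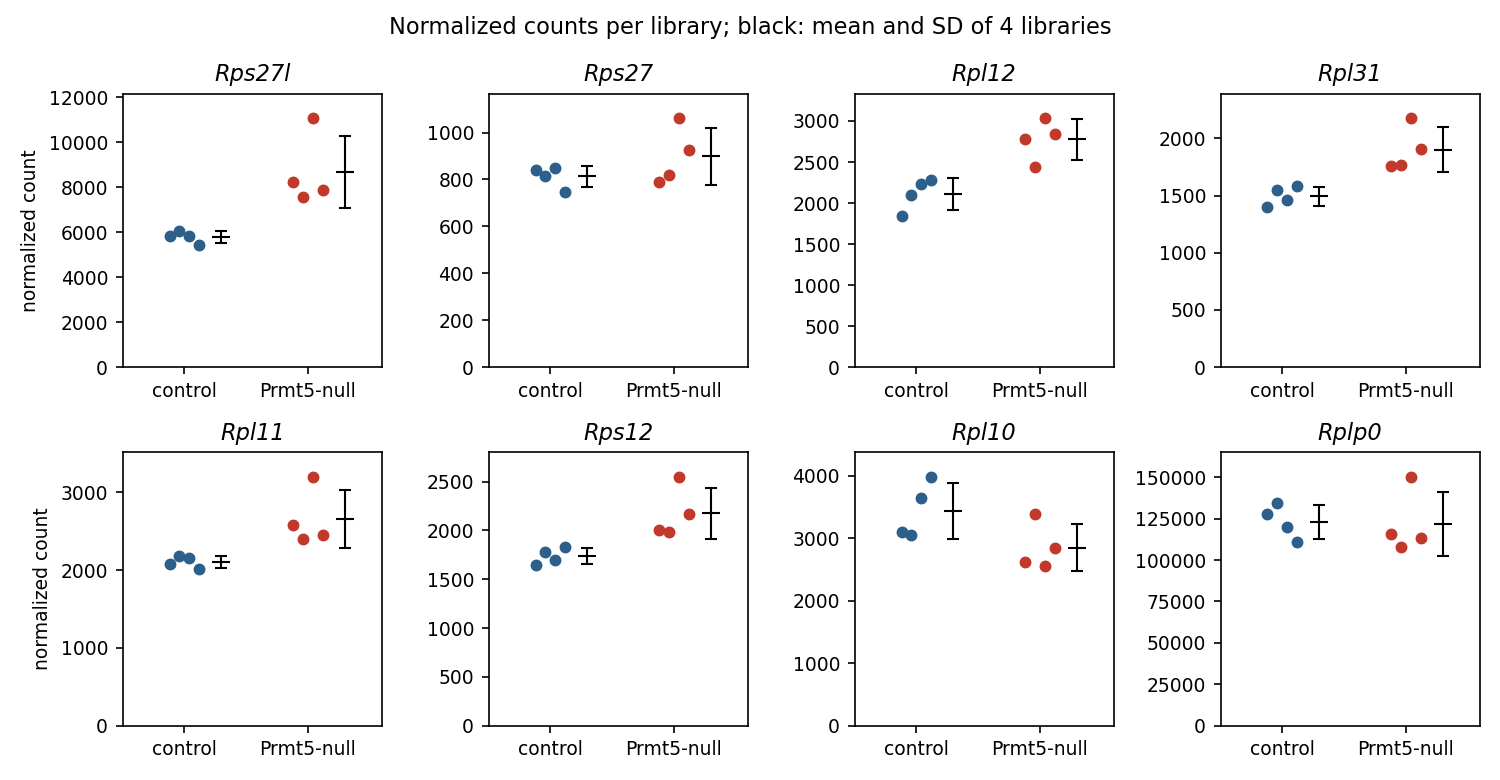
Normalized counts per library of 8 ribosomal protein genes, with control libraries in blue, Prmt5-null libraries in red and the mean with SD of 4 libraries in black. Rps27l, Rpl12, Rpl31, Rpl11 and Rps12 show no overlap between the genotypes, whereas Rps27, Rpl10 and Rplp0 do.

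Several other members chosen for what their proteins are known to do did not pass the test. Rps10, a known substrate of Prmt5, had 7554, 7170, 10513 and 7954 normalized counts in the Prmt5-null and 7468, 7719, 7350 and 6391 in the control libraries (log2 fold change 0.19, limma adjusted p = 0.311). Rps2, a substrate of the related enzyme Prmt3, had a log2 fold change of 0.17, and Rps6, the substrate of S6 kinase, 0.28 (limma adjusted p = 0.103). Rps19 and Rps14, whose loss is linked to anemia in humans, were at 0.23 and 0.41. Rps14 had 42229, 40446, 61659 and 41865 normalized counts against 34261, 38643, 35293 and 30332, with no overlap between genotypes but short of the threshold (limma adjusted p = 0.062). Rpsa, Rps27a, which is made as a fusion with ubiquitin, and Rps4x were at 0.21, 0.19 and 0.19.

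The stalk proteins Rplp0, Rplp1 and Rplp2 recruit the GTPases of translation. Rplp0 had 115520, 108172, 150234 and 113563 normalized counts in the Prmt5-null and 127856, 134375, 119767 and 110824 in the control libraries. Outside 10770, the Prmt5-null libraries of Rplp0 lay near or below the lowest control library, and the log2 fold change was −0.02 (limma adjusted p = 0.923). Rplp1 was at 0.12 and Rplp2 at 0.20, so that the protein to which both bind had the lowest fold change of the 3 transcripts.

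Since the level of the whole family differed between libraries, each member was also expressed as reads per 1000000 reads on ribosomal protein genes, a scale chosen after the values were seen. On this scale 6 members were higher in every Prmt5-null than in every control library, against 2.55% of all genes, and 3 were lower, against 19.6%. The scale itself shifts these shares of all genes, which were 9.67% and 10.2% on normalized counts. They are therefore no background for the members, and the counts of 6 and 3 are not read as more or fewer than usual. Rplp0 had 61215, 60772, 60662 and 60283 reads per 1000000 member reads in the Prmt5-null and 72664, 71079, 70475 and 71354 in the control libraries. Library 10770 did not stand apart here, and the ratio of the means was 0.85 (60733 ± 384 against 71393 ± 923, SD, n = 4 mice each). Rpl7l1, a nucleolar paralog of Rpl7, had a ratio of 0.87 and Rps20, which encodes uS10, a ratio of 0.92.

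Among the 6 higher members, Rps27l had 4320 ± 126 reads per 1000000 member reads in the Prmt5-null and 3364 ± 133 in the control libraries (SD, n = 4 mice each), a ratio of 1.28. Of the others, Rps14 was at 1.15, Rpl26, which is known to bind p53 mRNA, at 1.13, Rpl27a at 1.09 and Rpl32 at 1.07. These members were picked for not overlapping, so no test is given for them on this scale. When every library was instead scaled to its median ribosomal protein gene and limma was run on all genes, the median of all genes moved to −0.23. Rps27l was then the 1 member higher at the adjusted p, against 1.66% of all genes (log2 fold change 0.34, limma adjusted p = 0.020). Rplp0 was the 1 member lower, against 12.4% of all genes (log2 fold change −0.26, limma adjusted p = 0.018). The scaling shifts these shares of all genes as well, so they are no background for the members. This scaling was also chosen after the values were seen, and it shifts the genes over which the p was adjusted. Neither adjusted p is therefore read as a test of Rps27l or Rplp0.

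**Figure D4:**
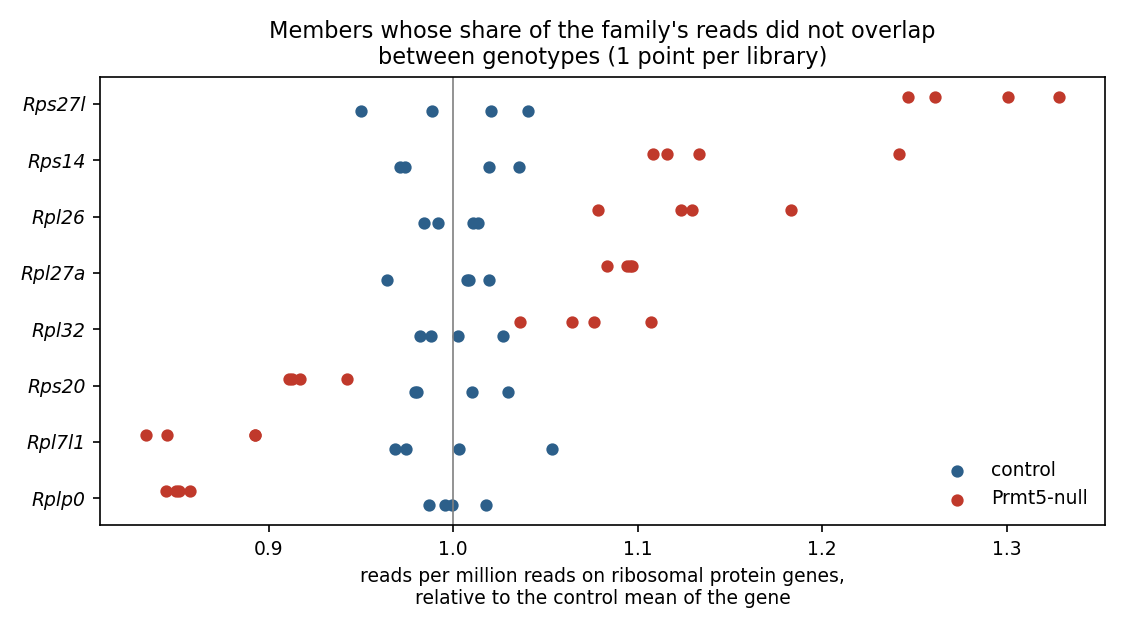
Reads per 1000000 reads on ribosomal protein genes, relative to the control mean of each gene, for all but 1 of the 9 members whose libraries did not overlap between the genotypes, with 1 point per library. Rps27l lies highest, with a ratio of the means of 1.28, and Rplp0 lies lowest at 0.85 with all 4 Prmt5-null libraries close together.

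The level of members varied widely within the control libraries. Per kilobase of exonic length, Rplp1 was highest at 94340 ± 7730 normalized counts (SD, n = 4 mice), and its lowest library was above the highest of Rplp0, which followed at 74265 ± 6142. Rpl8, Rpl32 and Rpl4 came next at 58169 ± 4840, 57065 ± 5740 and 56204 ± 3069, which is within their spread of each other. At the other end were Rpl39l at 131 ± 66.8, Rps13 at 174 ± 20.4, Rps12l2 at 334 ± 127, Rpl24 at 369 ± 12 and Rps23 at 433 ± 27.9. Rpl39l and Rps13 overlapped, as did Rps12l2 with Rpl24 and Rps23. The length used joins the exons of every annotated transcript, those that retain introns included. It was 499 bases in Rplp1, 2691 in Rps13 and 7440 in Rpl24, so this order depends on the annotation. Rps13 and Rps23 encode core proteins of the small subunit, so low counts of such genes are set beside how much of each can be told from its copies. By the measure of unique sequence described next, the median member was at 69.4%. Rpl39l, Rpl24 and Rps13 were above it, at 100%, 85.4% and 75.2%. Rps23 and Rps12l2 were below it, at 57.4% and 45.8%. Low levels thus occurred on both sides of the median, and their cause was not tested.

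Only uniquely mapped reads were counted, and ribosomal protein genes have many processed pseudogenes. A median of 69.4% of the 50-base stretches of a member was found in no transcript of another gene, with 19 members below 50% and 20 at or above 80%. The median log2 fold change was 0.19 in those 19 and 0.25 in those 20. Over the 82 members, which share libraries and partly sequence, Spearman's rho of this share with the level per kilobase was 0.06 and with the fold change 0.17. The 222 genes named as pseudogenes of members, a list chosen after the values were seen, summed to 779624 to 1074619 normalized counts in the Prmt5-null and 669483 to 829937 in the control libraries. The members themselves summed to 1779979 to 2476593 and 1553152 to 1890498. Of the 139 pseudogenes tested, 126 were above 0, against 50.4% of all genes, with a median of 0.20. At the limma adjusted p 0 passed, against 6.51% of all genes higher and 7.33% lower. At an unadjusted limma p below 0.05, 21 were higher, which is near the 14.6% of all genes.

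Paralogs and their parents were compared as ratios of normalized counts per exonic length within each library. Rpl22 and its paralog Rpl22l1 had log2 fold changes of 0.25 and 0.24, and Rpl22l1 per Rpl22 lay at 0.257 to 0.301 in the Prmt5-null and 0.274 to 0.293 in the control libraries. Rpl7l1 per Rpl7, in contrast, was lower in every Prmt5-null library, at 0.0831 to 0.0936 against 0.0986 to 0.11 (exact permutation p = 0.0286, 0.0857 after adjustment over the 6 pairs). Rpl39l, a testis-type paralog of Rpl39, had 157, 89.8, 274 and 101 normalized counts in the Prmt5-null and 131, 175, 50.2 and 78.2 in the control libraries. The genotypes overlapped, and its log2 fold change of 0.52 had an SE of 0.40. Rps12l1, a processed copy of Rps12 of which 0% was unique by the measure above, had a log2 fold change of 0.16, and Rps12l2 one of 0.31 with an SE of 0.26. Rps12l1 per Rps12 lay at 40.3 to 49.7 in the Prmt5-null and 39.5 to 55.0 in the control libraries. The part of shared sequence in the size of such ratios was not tested. Rpl3l, the muscle paralog of Rpl3, had 3.57 to 20.4 normalized counts and was not tested, and Rpl10l, a testis paralog of Rpl10, was at 0 in every library.

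The authors' splicing tables, filtered to events with a difference in inclusion of at least 0.1, held 13 events in 10 members. Among genes with a mean above 50 this was 10 of 82 members, or 12.2%, against 11.4% of all genes. Inclusion is given as the authors' mean of 4 values per genotype, whose libraries the tables do not name, so it has no SD or test here. In 6 of the 13 events the 2 lists of 4 values did not overlap. Of the 50-base stretches described above, 46.2% of those of Rpl10 and 47.5% of those of Rps12 were found in no other gene. How reads shared with processed copies affect the inclusion levels was not tested. A level is therefore not read as the share of a gene's mRNA in that form.

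Retained introns in members went both ways, and the introns are shown because 3 of the 5 had lower inclusion in Prmt5-null iGBs. Each line gives the 5′ splice site of a retained intron, from 9 bases of exon into the intron, taken from the GENCODE M21 transcript that retains it, with the first 2 bases of the intron in capitals.
Rpl10: gtgtccctgGTaagtagtg
Rpl27a: gccgcatcgGTaagtgtgc
Rpl41: agagcgaagGTgagcggct
Rpl30: agctttgagGTaatggagg
Rpl3: taagaactgGTaagaggct

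All 5 introns began with GT. Retention was lower in Prmt5-null iGBs in Rpl10, Rpl27a and Rpl41 and higher in Rpl30 and Rpl3, that is 2 higher and 3 lower, whereas of the 337 retained introns of all genes 293 were higher (86.9%) and 44 lower. The intron of Rpl10 at chrX:74271719-74271799 had an inclusion of 0.797, 0.783, 0.855 and 0.855 in the control and 0.692, 0.659, 0.667 and 0.767 in the Prmt5-null list, with means of 0.823 and 0.696. Every Prmt5-null value was below every control value. It is 81 bases long and lies between coding exons.

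The intron of Rpl27a at chr7:109519649-109519917 went from a mean of 0.568 in the control to 0.381 in the Prmt5-null list. That of Rpl41, which encodes the smallest ribosomal protein, at chr10:128548681-128548948 went from 0.622 to 0.419. In both the lists did not overlap. The intron of Rpl30 at chr15:34440605-34442634 went from 0.590 to 0.777 and that of Rpl3 at chr15:80081212-80081614 from 0.563 to 0.658, and in these the lists overlapped. Between 233 and 1740 reads per library, of the retained and the spliced form together, lay behind these 4 events. The spliced form of Rpl30 had only 7 to 23 reads per Prmt5-null and 19 to 59 per control library. The forms that retain the introns are not annotated as coding in GENCODE.

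Exon inclusion was higher in Prmt5-null iGBs in 4 of the 5 skipped exons of members, against 298 of 913 (32.6%) over all genes. Of these 4, the exons of Rps16 and Rps27 rested on 1 to 6 and 9 to 23 reads per library. Their lists overlapped, so the count is not read as a trait of members. The exons of Rps12 and Rpl12 are shown, because they belong to members that also rose at the gene level. Both are coding and are given 5′ to 3′ on the strand of the gene, from GENCODE M21 on GRCm38.
Rps12 exon: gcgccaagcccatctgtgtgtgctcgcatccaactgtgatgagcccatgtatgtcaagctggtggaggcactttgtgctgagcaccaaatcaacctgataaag
Rpl12 exon: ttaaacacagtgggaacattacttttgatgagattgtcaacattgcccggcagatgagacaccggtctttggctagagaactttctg

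The exon of Rps12 at chr10:23785902-23786004 is 103 bases long, which is no multiple of 3. Its inclusion was 0.77, 0.556, 0.607 and 0.361 in the control and 1.0, 0.84, 0.897 and 0.923 in the Prmt5-null list. The lists did not overlap, with means of 0.574 and 0.915, but only 46 to 85 reads per library lay behind them. The exon of Rpl12 at chr2:32963497-32963583 is 87 bases long, and its inclusion went from 0.189, 0.148, 0.224 and 0.105 to 0.366, 0.298, 0.316 and 0.244. The same exon is the second of a mutually exclusive pair in Rpl12, in which the first exon at chr2:32962985-32963066 fell from a mean of 0.867 to 0.721. These Rpl12 events share reads and are not independent. In the annotation, transcripts that skip either of the 2 exons printed above are of the retained-intron type and not coding.

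The remaining events had overlapping lists or few reads. Inclusion of an exon of Rpl23 was 0.849 in the control and 0.711 in the Prmt5-null list. An alternative 5′ splice site of Rpl27a, in the region of its retained intron, went from 0.615 to 0.470. The events of Rps16 and Rps27 rested on 1 to 25 reads per library, so their differences were not resolved at this depth.

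Introns of ribosomal protein genes also house small nucleolar RNAs (snoRNAs), which guide the modification of ribosomal RNA and are cut from the spliced intron. In all, 56 annotated snoRNA genes lay inside 29 of the 84 members (34.5%), and 8 of the 10 members with a splicing event held one. The medians of these snoRNAs and of their hosts had opposite signs. The 54 tested had a median log2 fold change of −0.11 with 22 above 0, against −0.09 with 91 above 0 in the 211 snoRNAs tested elsewhere, while the 29 hosts had a median of 0.22. At the limma adjusted p 4 rose (7.41%, against 6.51% of all genes) and 3 fell (5.56%, against 7.33%), while 9 (4.27%) rose and 17 (8.06%) fell among the 211 elsewhere. These shares are near those of all genes, and the snoRNAs described next are single genes. These genes were looked at after the values were seen, and reads of a snoRNA and of the host intron around it cannot be told apart.

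Snora65, in the intron of Rpl12 at chr2:32963291-32963420 between the exons described above, had 684, 601, 704 and 685 normalized counts against 238, 314, 326 and 406. The genotypes did not overlap, with every Prmt5-null library above the highest control library (log2 fold change 1.08, SE 0.15, limma adjusted p = 0.0007). Snora70, in Rpl10 at chrX:74272484-74272620, was lower, at 106, 138, 118 and 144 against 209, 170, 296 and 267 normalized counts (log2 fold change −0.87, SE 0.19, limma adjusted p = 0.0103). Others past the threshold were Gm24888 in Rpl27a at 0.66 and Gm22270 in Rpl5 at 0.59, which rose, and Gm23130 in Rps12 at −0.59 and Gm22077 in Rpl3 at −0.53, which fell.

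**Figure D5:**
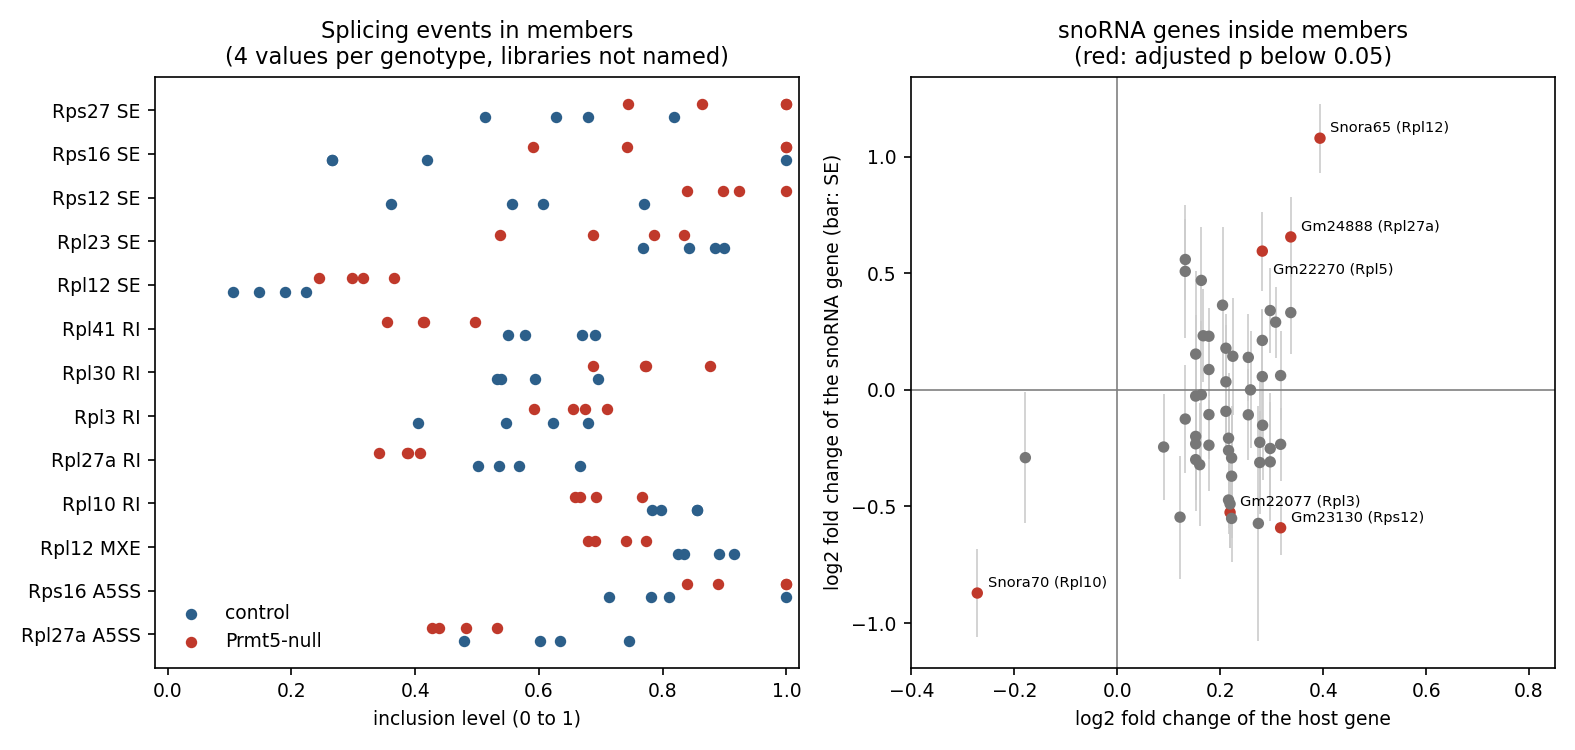
Left, inclusion level (0 to 1) of the 13 splicing events in ribosomal protein genes, with 4 control (blue) and 4 Prmt5-null (red) values whose libraries are not named; SE is a skipped exon, RI a retained intron, MXE a mutually exclusive pair and A5SS an alternative 5′ splice site. Right, log2 fold change of tested snoRNA genes inside members (1 host is not shown) against that of the host, with SE bars and red for an adjusted p below 0.05; Snora65 lies at 1.08 and Snora70 at −0.87.

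Genes that act with ribosomal proteins, or serve as comparison, changed about as often as other genes. Over the 6 lists given next, 11 of 178 tested genes were higher at the limma adjusted p (6.18%, against 6.51% of all genes) and 7 were lower (3.93%, against 7.33%), so the genes named are examples and not a result about their list. The ribosomal proteins whose symbols lie outside the rule, such as Fau, Gnb2l1 and Rpl36al, had log2 fold changes of 0.26, 0.21 and 0.16 in these 3, and 0 of the 4 tested passed the limma adjusted p, with 1 higher at an unadjusted p below 0.05. Of 15 other TOP genes, 13 were above 0 with a median of 0.21, and 2 rose at the limma adjusted p, the translation factors Eif4b (0.50, adjusted p = 0.0018) and Eef1g (0.32, adjusted p = 0.039). Without both libraries that stood apart this median was 0.12. The 75 mitochondrial ribosomal proteins, which serve a separate ribosome, had a median of 0.05, with 3 higher and 3 lower at the limma adjusted p.

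The 40 genes of ribosomal RNA synthesis and processing had a median of −0.03, with 1 higher and 4 lower at the limma adjusted p. Nop56, a core protein of the snoRNA particles that methylate ribosomal RNA, was at −0.55, and the polymerase I subunit Polr1a at −0.30. Nvl, an ATPase of large subunit maturation, and Noc4l fell by 0.32 and 0.29 on the log2 scale, whereas Polr1c, a subunit of polymerases I and III, was at 0.57. Of the 26 assembly and chaperone genes 4 rose and 0 fell at the limma adjusted p, with a median of 0.04 and 2 lower at an unadjusted p below 0.05. The Rps2 chaperones Pdcd2 and Pdcd2l were at 0.36 and 0.40, Lsg1 at 0.30 and Gltscr2 at 0.23. Of 18 regulators of the translation of these genes, 1 rose, Sesn2, an inhibitor of mTORC1, at 0.66 (limma adjusted p = 0.0010), and the median was −0.06.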

How the data were processed

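RNA of iGBs from 8 mice, 4 per genotype, was sequenced (125-base paired reads, ribosomal RNA depleted, stranded kit). Each library was from a different mouse. The authors trimmed reads with Trimmomatic 0.32, aligned them to mm10 (GRCm38) with STAR 2.3.0e and counted uniquely mapped exonic reads with featureCounts 1.4.4; the strand setting is not given in the sources used here. The authors deposited the counts divided by DESeq2 1.14.1 size factors, a normalized signal, from which whole reads were recovered (within 0.001 of a whole number). rMATS tables were deposited by the authors with inclusion levels as fractions, junction read counts, p-values and q-values, and differences; their own p-values and differences were not used.

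Members and lists were chosen with earlier results of these data known. limma 3.58.1 (R 4.3.3, lmFit, eBayes with trend) was run on log2(normalized count + 1) over 16250 genes with a mean of at least 10, with Benjamini-Hochberg adjustment, so fold changes of low genes are understated. A call needed an adjusted p below 0.05 and 1.5-fold. Count tests on the recovered reads used edgeR 4.0.16 or DESeq2 1.42.0, and scripts were tested on simulated data. Single values used exact two-sided permutation tests over libraries (SciPy 1.17.1). Members named were those past the threshold, the 5 highest and 5 lowest per length, paralogs with parents, members with a splicing event and members chosen for their role; others (Rpl26, Rps20, Rpl17, Rpl28, Rpl36a and the snoRNAs) were named after their values were seen. Some genes are counted but not reported here by name. Sequences came from RefSeq (GRCm38.p6) and GENCODE M21 transcripts. Unique sequence was the share of a member's 50-base stretches found in no other GENCODE gene. Ribosomal protein genes with near-identical copies are uncertain, since reads of copies can be dropped or assigned to either. Alternatives changed the pseudocount, filter, normalization, tool, thresholds, libraries and, because no label ties a library to its experiment, the experiment block in all 18 placements.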

Additional observations from a re-analysis of the deposited data

Results flagged for a closer look

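In groups of 4 libraries, one library was tested for lying far from the other 3, which chance gives in about 1 in 20 groups. Of 82 groups tested, over the named members and summary values, 13 (15.9%) had such a library, and in all 13 it was Prmt5-null 10770. The groups share the same libraries and are not independent, so the rate of 1 in 20 is no background for this count. For 12 genes Prmt5-null 10770 was the highest of the Prmt5-null libraries. In the large subunit these were Rpl22 (32653 normalized counts, others 23575 to 24732), Rpl23 (24561, others 18665 to 19385), Rpl27a (9792, others 7047 to 7480), Rpl30 (9146, others 6714 to 6991), Rpl32 (87213, others 60934 to 63891), Rpl7 (85402, others 59019 to 63338) and Rplp2 (25366, others 18169 to 19257). In the small subunit they were Rps12l1 (24929, others 16632 to 17183), Rps14 (61659, others 40446 to 42229), Rps19 (37844, others 26772 to 28501), Rps4x (61282, others 44166 to 46641) and Rps6 (21165, others 15709 to 16638). The ratio of large to small subunit reads was the lowest in 10770, at 1.21 against 1.252 to 1.26 in the other 3.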

How the results depend on the processing

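No paired analysis was possible because the replicate numbers are those of single mice and no number occurs in both genotypes. The calls at 1.5-fold, 0 in the analysis reported, came to 1 with DESeq2, 1 with edgeR, 5 at a lower fold threshold and 0 to 1 with 1 library left out. The 6 members past the adjusted p, here counted in either direction, became 3 with every gene above 0 kept, 2 without a trend, 14 after quantile normalization, 2 after scaling to the median ribosomal protein gene, 3 without both Prmt5-null 10770 and control CTRL-10597, 1 at an adjusted p below 0.01, 3 to 15 with the experiment as a block, and 1 to 9 with 1 library left out. The median log2 fold change of 0.22 was −0.0101 after scaling to the median ribosomal protein gene, as that scaling sets it near 0 by construction. The difference between the subunit medians moved from −0.01 to 0.0251 after quantile normalization. Members with a splicing event fell from 10 to 2 at a difference of at least 0.25. The gap in the share of reads, 0.6 percentage points, was 0.337 without 10770 and 0.227 without both libraries.

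Of 1482 values for 39 named members, 1377 kept direction and side of the threshold, 58 no longer passed it, 19 newly passed it (the members that lost it were Rpl11, Rpl12, Rpl27a, Rpl31 and Rps12) and 28 changed sign, none of these with an adjusted p below 0.05. After scaling to the median ribosomal protein gene the log2 fold change was −0.0116 for Rpl3, −0.0784 for Rpl4, −0.229 for Rpl7l1, −0.021 for Rpl8, −0.107 for Rplp1, −0.0262 for Rplp2, −0.0453 for Rps10, −0.0671 for Rps12l1, −0.0705 for Rps16, −0.00563 for Rps19, −0.0638 for Rps2, −0.0548 for Rps23, −0.0932 for Rps27, −0.0371 for Rps27a, −0.0405 for Rps4x and −0.0197 for Rpsa. Without both libraries it was −0.11 for Rpl7l1, −0.0538 for Rplp1, −0.0511 for Rps12l1 and −0.0506 for Rps12l2. Rpl7l1 was at −0.00228 after quantile normalization. With 1 library left out, Rpl7l1 ranged from −0.0857 without 10770 to 0.0665, Rplp0 from −0.129 without 10770 to 0.029 without 10618, and Rplp1 from −0.00469 without 10770 to 0.201. Causes were not tested. Low counts limited the splicing events with few reads and members such as Rpl39l and Rps12l2, whose SE was 0.40 and 0.26.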
